A study of Mus musculus with 63 samples.

Results

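The genes described here are 10 components of transforming growth factor beta (TGF-beta) signalling in mouse cortex: the ligands Tgfb1, Tgfb2 and Tgfb3, the receptors Tgfbr1 and Tgfbr2, the intracellular Smad2, Smad3, Smad4 and Smad7, and Lrrc33, which the gene annotation lists as Nrros. They were chosen by name, as the rows that carry these symbols among the 56980 genes of each of 4 raw count tables, and 10 of 10 were found. The tables hold RNA-sequencing counts from female C57BL/6J mice, 12 weeks of age, that received either a thermal burn to 7 to 8% of the body surface or a sham procedure with every step except the burn, and whose tissue was taken 5 weeks later. All mice, shams included, had both AAV-CaMKII-eGFP and AAV-mDlx-mRuby2 injected into the motor cortex on both sides and received surgery and analgesia. Cells were sorted from the motor cortex as CaMKII positive (eGFP alone) or double-positive (eGFP and mRuby2), and from the cortex behind it as ACSA2 positive astrocytes and CD11b positive microglia. The fluorescent proteins were driven by the CaMKII and mDlx promoters of the vectors.

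TGF-beta ligands are secreted in a latent form, held by their own propeptide and by a carrier protein, and have to be released before they can bind. The active ligand brings together Tgfbr2 and Tgfbr1, a receptor kinase pair that phosphorylates Smad2 and Smad3, which then enter the nucleus with the shared partner Smad4, whereas Smad7 is a feedback inhibitor that acts on the receptor. In the brain the pathway is known for maintaining the identity of microglia, and Lrrc33 is the carrier that holds latent Tgfb1 on the surface of microglia and other myeloid cells.

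Of 63 deposited libraries, 58 from 17 mice were used after all libraries of mouse 3 and the double-positive library of mouse 8 were left out. These were 4 burn and 6 sham CaMKII positive libraries, 9 burn and 7 sham double-positive libraries, 9 burn and 8 sham astrocyte libraries, and 8 burn and 7 sham microglia libraries, each number counting different mice. Total counts ran from 13346143 to 134703744 per library with a median of 24339900, so a count of 0 allowed between 0.0223 and 0.225 counts per 1000000 (CPM), for counting error only. The labels and the marker genes differed for the virus-labelled populations. Summed over 7 microglial markers (among them Csf1r, C1qa, C1qb, Trem2, Aif1 and Itgam), double-positive libraries held 12258 to 22301 CPM and microglia 13819 to 21597 CPM, against 337 to 1778 CPM in CaMKII positive libraries and 39.1 to 120.0 CPM in astrocytes. Summed over 7 astrocyte markers, CaMKII positive libraries held 12252 to 22981 CPM and astrocytes 32419 to 46188 CPM. The CaMKII positive libraries also held 3105 to 8844 CPM of 6 endothelial markers and 626 to 1672 CPM of 6 mural cell markers, but 20.2 to 134.4 CPM of 5 markers of all neurons, of which at least 1 was at 0 in a library, and 22.6 to 394 CPM of 5 excitatory neuron markers (median 105.8), against 10.2 to 1486 CPM in astrocytes (median 34.7). Double-positive libraries held 0.589 to 3.27 CPM of 5 inhibitory neuron markers. The populations are therefore named below by their sort and not as neurons. In such bulk libraries, fewer cells of a type and less RNA per cell cannot be told apart.

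The ligands Tgfb1 (ENSMUSG00000002603, chromosome 7) and Tgfb2 (ENSMUSG00000039239, chromosome 1) had opposite patterns over the populations, so the sequences around their transcription starts are shown here, from 250 bases before to 50 bases after the start, as given by RefSeq for GRCm38.p6. The Tgfb1 window is chr7:25686752-25687051 on the plus strand and the Tgfb2 window is chr1:186705940-186706239 on the minus strand. Capitals mark motif matches on either strand, none of which overlap each other. The GC box was searched for as GGGCGG. The letters taken for the TATA box were TATAAA. For the E-box they were CACGTG. A Smad core motif was read as CAGACA.
Tgfb1: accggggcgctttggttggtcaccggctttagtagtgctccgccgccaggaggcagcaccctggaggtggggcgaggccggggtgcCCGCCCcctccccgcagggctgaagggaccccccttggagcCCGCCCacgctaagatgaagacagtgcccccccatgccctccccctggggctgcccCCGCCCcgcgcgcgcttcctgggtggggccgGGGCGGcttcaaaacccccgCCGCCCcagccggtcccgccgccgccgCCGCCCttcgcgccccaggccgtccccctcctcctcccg
Tgfb2: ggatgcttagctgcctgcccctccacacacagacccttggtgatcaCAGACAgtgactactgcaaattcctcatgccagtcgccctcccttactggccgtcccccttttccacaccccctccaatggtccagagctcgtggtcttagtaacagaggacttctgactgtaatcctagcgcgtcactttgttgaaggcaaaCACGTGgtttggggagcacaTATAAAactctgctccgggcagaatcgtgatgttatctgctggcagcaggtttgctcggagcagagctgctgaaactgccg
The Tgfb1 window held 6 GC box matches, 164, 123, 67, 36 and 16 bases before the start and 11 bases after it, and none of the other motifs, with a GC content of 77.0%. The Tgfb2 window held no GC box match but had a TATA box match 31 bases before the start, an E-box match 51 bases before it and a Smad core match 204 bases before it, with a GC content of 54.3%. Over 32851 promoter windows of the same length, the median GC content was 52.7%, and 35.7% held a GC box match, 13.6% a TATA box match, 7.15% an E-box match and 21.0% a Smad core match. These matches are letters in a window and were not tested as sites. Windows were found for 6 of the 10 genes, among which Smad3 and the first of 2 Tgfbr1 starts held 2 GC box matches each, the second Tgfbr1 start held a Smad core match and a GGAAGT (ETS core) match, a motif present in 23.8% of all windows, and Tgfbr2 and Lrrc33 held none of the 5 motifs.

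Among the ligands, Tgfb1, the form made by many immune cells, was high in the 2 populations with microglial markers. Its mean level was 588 ± 67.2 CPM (SD, n = 16) in double-positive cells, 559 ± 70.2 CPM (n = 15) in microglia, 76.5 ± 24.0 CPM (n = 10) in CaMKII positive cells and 9.89 ± 5.37 CPM (n = 17) in astrocytes. The ranges of double-positive cells and microglia overlapped, whereas each later step in this order was free of overlap: the lowest microglia library (451 CPM) lay above the highest CaMKII positive library (107 CPM), whose lowest (37.6 CPM) lay above the highest astrocyte library (19.1 CPM). Tgfb2, a ligand known from glia and from development, ran the other way. Its mean was 88.2 ± 17.6 CPM in CaMKII positive cells and 72.7 ± 12.2 CPM in astrocytes, with overlapping ranges, and then 2.07 ± 1.48 CPM in double-positive cells and 0.895 ± 0.984 CPM in microglia. The lowest astrocyte library, at 48.9 CPM, stood above the highest double-positive library, at 6.24 CPM, and every astrocyte library held at least 1203 counts of it. Tgfb3 (ENSMUSG00000021253, chromosome 12), the third ligand, was low in all 4 populations. It averaged 22.7 ± 29.6 CPM in CaMKII positive cells, where the mean was carried by sham mouse 8 at 105.7 CPM while the median was 14.3 CPM, and 9.91 ± 3.64 CPM in astrocytes. It averaged 1.24 ± 2.37 CPM in double-positive cells, with 1 of 16 libraries at 0, and 0.230 ± 0.282 CPM in microglia, with 5 of 15 libraries at 0 and no library above 22 counts. The annotation places antisense genes over Tgfb2 (Gm29491) and Tgfb3 (Gm37804 and Gm48008), and since the sources used here do not say whether the counting used strand, their reads cannot be told apart from these.

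**Figure D1:**
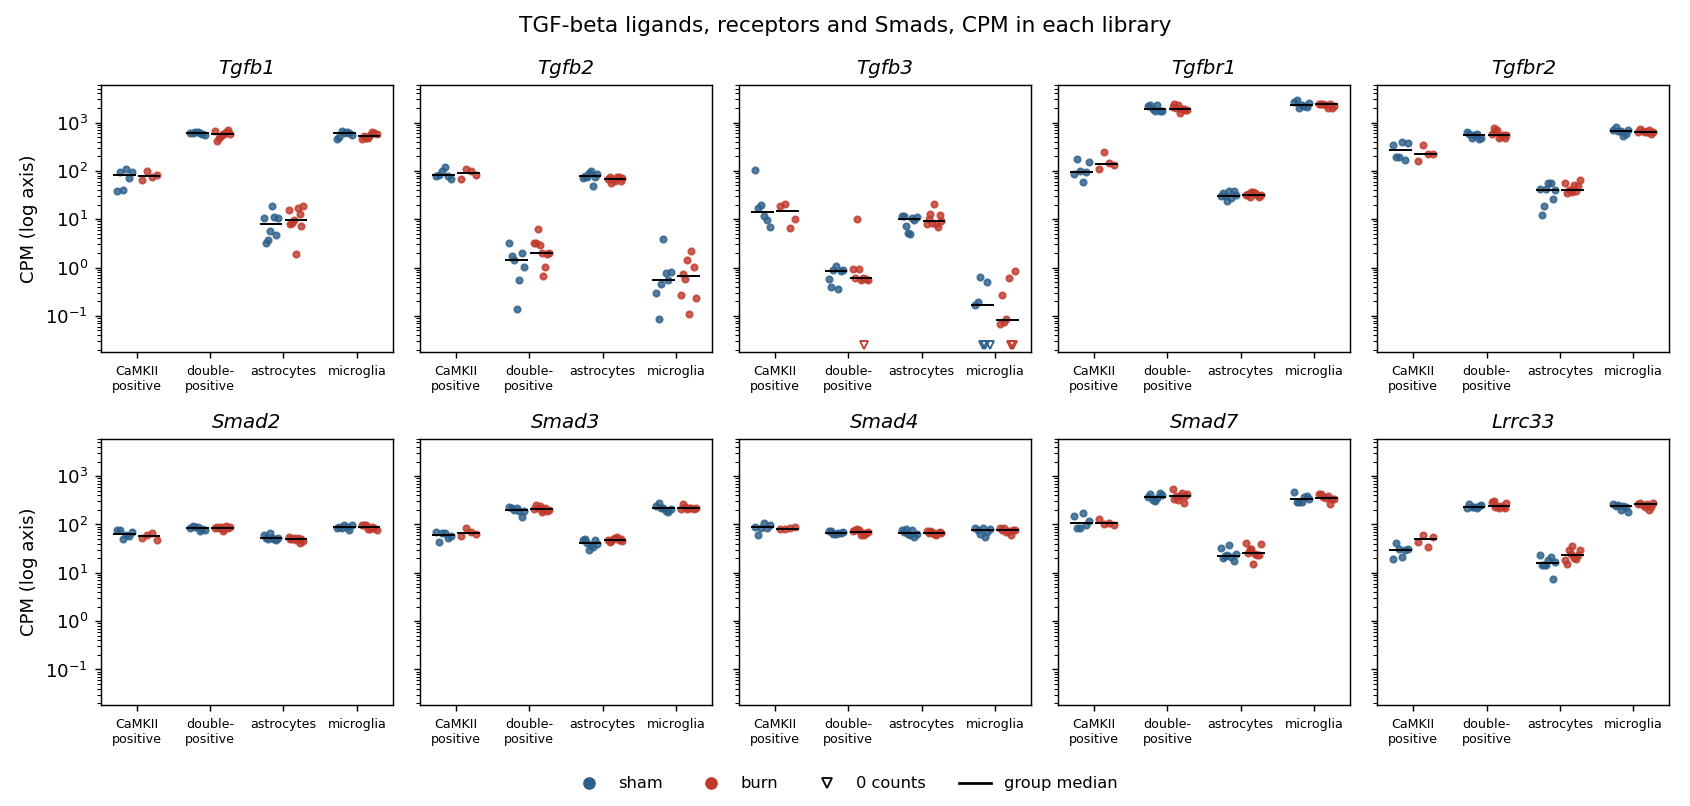
CPM of each of the 10 genes (log axis) in every kept library by sorted population, with sham in blue, burn in red, open triangles for libraries at 0 counts and a bar at each group's median. Tgfb1, Tgfbr1, Tgfbr2, Smad3, Smad7 and Lrrc33 stood higher in double-positive cells and microglia than in astrocytes, and Tgfb2 and Tgfb3 stood lower. Burn and sham points overlapped in all 40 pairs of gene and population, which was not counted over all genes.

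Both receptors followed Tgfb1. Tgfbr1 (ENSMUSG00000007613, chromosome 4), the receptor kinase that phosphorylates the Smads, averaged 2334 ± 246 CPM in microglia, 1993 ± 271 CPM in double-positive cells, 130.2 ± 53.2 CPM in CaMKII positive cells and 32.4 ± 3.85 CPM in astrocytes. Tgfbr2 (ENSMUSG00000032440, chromosome 9), which binds the ligand first, averaged 659 ± 68.5 CPM in microglia, 565 ± 89.6 CPM in double-positive cells, 263 ± 92.3 CPM in CaMKII positive cells and 41.3 ± 13.6 CPM in astrocytes. For both, microglia and double-positive cells overlapped and every later neighbour in the order did not. Among astrocyte libraries Tgfbr2 was the more spread of the pair, from 12.2 to 64.5 CPM, against 24.2 to 38.9 CPM for Tgfbr1.

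The Smads divided into those that varied with population and those that hardly did. Smad3 (ENSMUSG00000032402, chromosome 9), a receptor-activated Smad, averaged 222 ± 25.4 CPM in microglia, 206 ± 25.1 CPM in double-positive cells, 62.9 ± 11.5 CPM in CaMKII positive cells and 45.1 ± 6.59 CPM in astrocytes, and only its middle step, from double-positive (lowest 146 CPM) to CaMKII positive cells (highest 85.7 CPM), was free of overlap. Smad7 (ENSMUSG00000025880, chromosome 18), the inhibitor, averaged 384 ± 67.8 CPM in double-positive cells, 354 ± 56.5 CPM in microglia, 114 ± 28.1 CPM in CaMKII positive cells and 26.8 ± 7.72 CPM in astrocytes, with overlap only between double-positive cells and microglia. Smad2 (ENSMUSG00000024563, chromosome 18), the other receptor-activated Smad of this branch, spanned a narrow scale from 88.2 ± 7.32 CPM in microglia through 85.1 ± 6.38 CPM in double-positive and 61.9 ± 10.1 CPM in CaMKII positive cells to 51.9 ± 5.61 CPM in astrocytes, and all neighbours in that order overlapped. Smad4 (ENSMUSG00000024515, chromosome 18), the partner shared with the bone morphogenetic protein (BMP) branch, was the flattest of the 10, with 85.5 ± 11.5 CPM in CaMKII positive cells, 74.6 ± 9.56 CPM in microglia, 69.8 ± 6.03 CPM in double-positive cells and 68.1 ± 6.80 CPM in astrocytes, again with every neighbour overlapping.

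Lrrc33 (ENSMUSG00000052384, chromosome 16), the carrier of latent Tgfb1, averaged 245 ± 25.8 CPM in double-positive cells, 240 ± 29.2 CPM in microglia, 36.8 ± 13.7 CPM in CaMKII positive cells and 20.5 ± 6.99 CPM in astrocytes. The gap lay between microglia, at 185 CPM or more, and CaMKII positive cells, at 61.5 CPM or less, while CaMKII positive cells and astrocytes overlapped. Relative to 1000 CPM of the summed microglial markers in the same library, Lrrc33 stood at 13.9 ± 2.47 CPM in microglia and 16.6 ± 2.57 CPM in double-positive cells, but at 51.7 ± 19.3 CPM in CaMKII positive cells and 317 ± 158 CPM in astrocytes. The ratio did not exceed 17.5 CPM in any microglia library and was at least 29.9 CPM in every CaMKII positive library and 96.7 CPM in every astrocyte library. The same ratio for Tgfbr1 was 133 ± 9.59 CPM in microglia, 134 ± 12.8 CPM in double-positive cells, 174 ± 44.7 CPM in CaMKII positive cells and 504 ± 179 CPM in astrocytes, so the CaMKII positive cells lay nearer to microglia for the receptor than for the carrier.

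**Figure D2:**
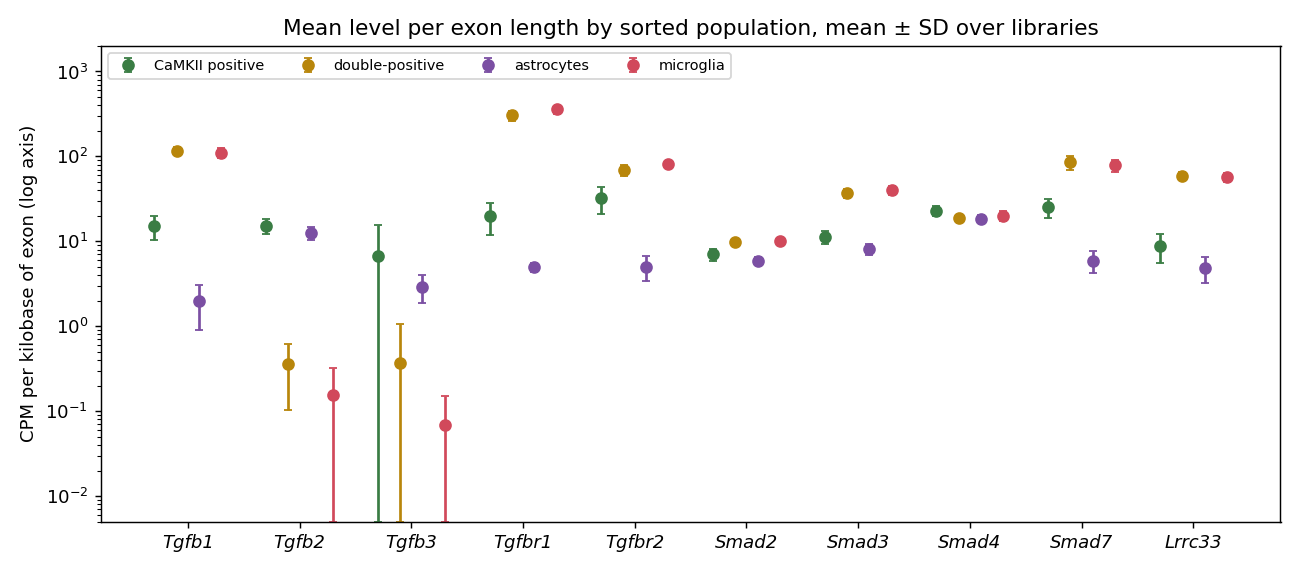
Mean level of each gene per kilobase of exon (CPM per kilobase, log axis) in the 4 sorted populations, with bars for the SD over libraries and with bars that would pass 0 clipped at the foot of the axis. Tgfbr1 was highest in microglia and double-positive cells (357 and 305 CPM per kilobase), where Tgfb3 (0.0680 and 0.368 CPM per kilobase) and Tgfb2 (0.155 and 0.358 CPM per kilobase) were the lowest pair.

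Divided by exon length, which allows genes to be compared within a population, Tgfbr1 led in microglia with 357 ± 37.7 CPM per kilobase, followed by Tgfb1 with 111 ± 13.9, Tgfbr2 with 80.4 ± 8.37, Smad7 with 78.4 ± 12.5 and Lrrc33 with 57.6 ± 6.99 CPM per kilobase. In astrocytes the leading member was Smad4 with 18.4 ± 1.83 CPM per kilobase, followed by Tgfb2 with 12.6 ± 2.11 and Smad3 with 8.14 ± 1.19 CPM per kilobase, and Tgfb1 was last with 1.96 ± 1.07 CPM per kilobase. In CaMKII positive cells the values per kilobase lay close together, from 6.72 ± 8.76 for Tgfb3 to 32.1 ± 11.3 for Tgfbr2. The ligand that led thus differed, being Tgfb1 in microglia and double-positive cells and Tgfb2 in astrocytes, whereas in CaMKII positive cells Tgfb1 with 15.2 ± 4.76 and Tgfb2 with 15.2 ± 3.03 CPM per kilobase were level.

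The comparison of microglia with astrocytes, sorted from the same cortex behind the motor area, asks which components each cell type carries. Of the 10 genes, 6 were higher and 2 lower in microglia by the quasi-likelihood test of edgeR (p adjusted across every gene tested by the method of Benjamini and Hochberg, at most 0.05, and a change of at least 2-fold, that is 1 on the log2 scale). This was read against a background of 54.2% of 30983 genes called, 21.8% higher and 32.4% lower in microglia, with a median log2 difference over all genes of -0.28. Tgfbr1 differed by 6.12 ± 0.09 (SE) on the log2 scale (69.6-fold, adjusted p = 2.25e-33), and Tgfb1 by 5.74 ± 0.23 (53.3-fold, adjusted p = 1.43e-21). Tgfbr2 (3.94 ± 0.15), Smad7 (3.65 ± 0.11), Lrrc33 (3.51 ± 0.13) and Smad3 (2.26 ± 0.08) were also higher. Tgfb2 was lower by a log2 difference of -6.57 ± 0.32 (adjusted p = 2.43e-19) and Tgfb3 by -5.54 ± 0.49 (adjusted p = 3.32e-12). Smad2 passed on the adjusted p alone, as 69.7% of genes did, with a log2 difference of 0.70 ± 0.06. Smad4 did not pass, at 0.08 ± 0.06 (adjusted p = 0.285), and an interval of 2 standard errors either side of -0.05 to 0.21 held its difference well inside 2-fold. Within mice that gave both libraries, 15 of 15 had the direction of the group for 9 genes, while Smad4 was higher in microglia in 12 and lower in 3. These 8 genes were called under every alternative processing tried, including the batch 3 libraries alone.

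**Figure D3:**
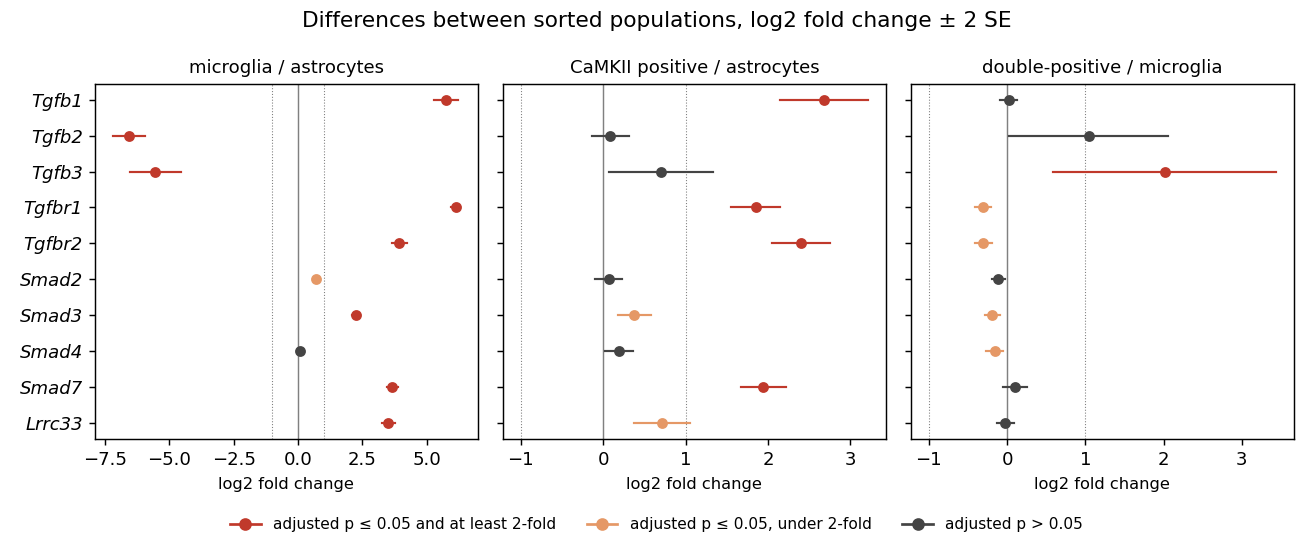
Log2 difference between populations for the 10 genes, with points at the edgeR estimate and lines for 2 standard errors either side, in microglia against astrocytes, double-positive cells against microglia, and CaMKII positive cells against astrocytes. Red marks an adjusted p of at most 0.05 with at least a 2-fold change, orange the adjusted p alone, and grey neither. The first comparison spread from -6.57 to 6.12, the second lay near 0 except for Tgfb2 and Tgfb3, and the third lay at 0.07 or higher throughout.

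Double-positive cells and microglia, which were taken from different cortical areas as well as by different sorts, differed little in these genes. Of the 10 genes, 1 was called, Tgfb3, read against a background of 7.58% of 28752 genes called, 5.6% higher and 1.98% lower in double-positive cells. The background fell from 2179 to 1092 called genes with a replicate block for the mouse, which left Tgfb3 called (adjusted p = 0.0468). Tgfb3 was higher by 2.01 ± 0.71 on the log2 scale (adjusted p = 0.0449), but it rested on a few reads and libraries. Double-positive burn mouse 10 held 10.1 CPM of Tgfb3, and the other 15 libraries held 0 to 1.06 CPM. Without mouse 10 the difference was 1.40 ± 0.70 (adjusted p = 0.166), in the batch 3 libraries alone it was 1.14 (adjusted p = 0.525), and leaving out mouse 2, 7, 8, 11, 12, 13, 16, 19, 20 or 23 also took the adjusted p above 0.05, to between 0.0525 and 0.0769. Tgfb2 did not pass (1.05 ± 0.51, adjusted p = 0.155), yet without mouse 16, whose sham microglia library held 3.81 CPM against 0.0843 to 2.25 CPM in the others, the difference was 1.54 and passed (adjusted p = 0.0118). In double-positive mouse 10 the summed endothelial markers were also high at 567 CPM, as were oligodendrocyte precursor markers at 190.1 CPM, and the part of these in its ligand counts was not tested. Over all kept libraries, the summed astrocyte markers ran from 451 to 1332 CPM in double-positive cells and from 190 to 340 CPM in microglia. Their part in the Tgfb2 and Tgfb3 differences was not tested. Tgfbr1 (-0.31 ± 0.05), Tgfbr2 (-0.30 ± 0.05), Smad3 (-0.19 ± 0.05) and Smad4 (-0.16 ± 0.05) were slightly lower in double-positive cells on the adjusted p alone, which 17.6% of all genes passed in either direction. With all deposited libraries none of the 4 passed (adjusted p = 0.472, 0.336, 0.452 and 0.379 by edgeR). Smad3 also failed with library size only, with no batch term and in batch 3 alone. Smad4 failed in those settings too, as well as with RLE size factors, no filter on low counts, the replicate block, and without mouse 10, 12, 13 or 16 (adjusted p up to 0.0615). For Tgfb1 (0.02 ± 0.05) and Lrrc33 (-0.02 ± 0.05), 2 standard errors either side spanned -0.09 to 0.12 and -0.13 to 0.09, so differences of over 0.13 on the log2 scale lay outside both intervals.

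CaMKII positive cells and astrocytes were also taken from different cortical areas and by different sorts, which cannot be told apart from cell type here. CaMKII positive cells differed from astrocytes in 4 of the 10 genes, all higher, against a background of 16.2% of 30729 genes called, 12.7% higher and 3.5% lower (4978 genes, or 3302 with a replicate block for the mouse). Tgfb1 was higher by 2.68 ± 0.27 (6.41-fold, adjusted p = 2.63e-09), Tgfbr2 by 2.40 ± 0.18 (5.27-fold, adjusted p = 1.03e-11), Smad7 by 1.94 ± 0.14 (3.85-fold, adjusted p = 6.18e-12) and Tgfbr1 by 1.85 ± 0.15 (3.61-fold, adjusted p = 5.56e-11). For these 4 genes, 10 of 10 mice with both libraries had the higher value in CaMKII positive cells. The uncalled genes were also higher in most of the 10 mice. Smad3 was so in 10, Lrrc33 and Smad4 in 9, Smad2 in 8, and Tgfb2 and Tgfb3 in 7. Lrrc33 (0.72 ± 0.17, adjusted p = 0.0016) and Smad3 (0.38 ± 0.10, adjusted p = 0.00405) passed on the adjusted p alone, as did 29.9% of genes. Tgfb2, Smad2 and Smad4 did not pass, with log2 differences of 0.09, 0.07 and 0.19, nor did Tgfb3 with 0.70 ± 0.31 (adjusted p = 0.0919). CaMKII positive libraries held 337 to 1778 CPM of microglial and 3105 to 8844 CPM of endothelial markers, against 39.1 to 120.0 and 119.6 to 1169 CPM in astrocytes, and the part of those and other cells in these differences was not tested.

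Burn against sham was tested within each population with the sequencing batch as a term, to ask whether the injury changed the pathway. None of the 10 genes was called in CaMKII positive cells, double-positive cells, astrocytes or microglia by edgeR's quasi-likelihood test, where 0% of 28107, 26707, 27930 and 26079 genes tested were called. At an unadjusted p under 0.05, 1 of the 10 passed in CaMKII positive cells, 0 in double-positive cells, 2 in astrocytes and 0 in microglia, against 3.90%, 7.01%, 10.7% and 7.81% of all genes. DESeq2 called 0 of the 10 in each population, where it called 3, 2, 27 and 80 of the same numbers of genes tested. The median log2 difference of the 10 was -0.02, 0.02, 0.13 and -0.01 in that order, and that of all genes 0.02, -0.00387, 0.05 and 0.00225. None of the 10 genes had groups without overlap in any population, which was not counted over all genes and is a description only. In microglia the estimates of Tgfb1 (-0.05 ± 0.07), Tgfbr1 (-0.03 ± 0.08), Tgfbr2 (0.02 ± 0.08), Smad2 (-0.03 ± 0.08), Smad3 (0.07 ± 0.08) and Smad7 (-0.03 ± 0.09) had intervals of 2 standard errors that stayed within 0.22 of 0 on the log2 scale. Tgfb2 and Tgfb3 in microglia were far less certain, with standard errors of 0.75 and 1.35.

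**Figure D4:**
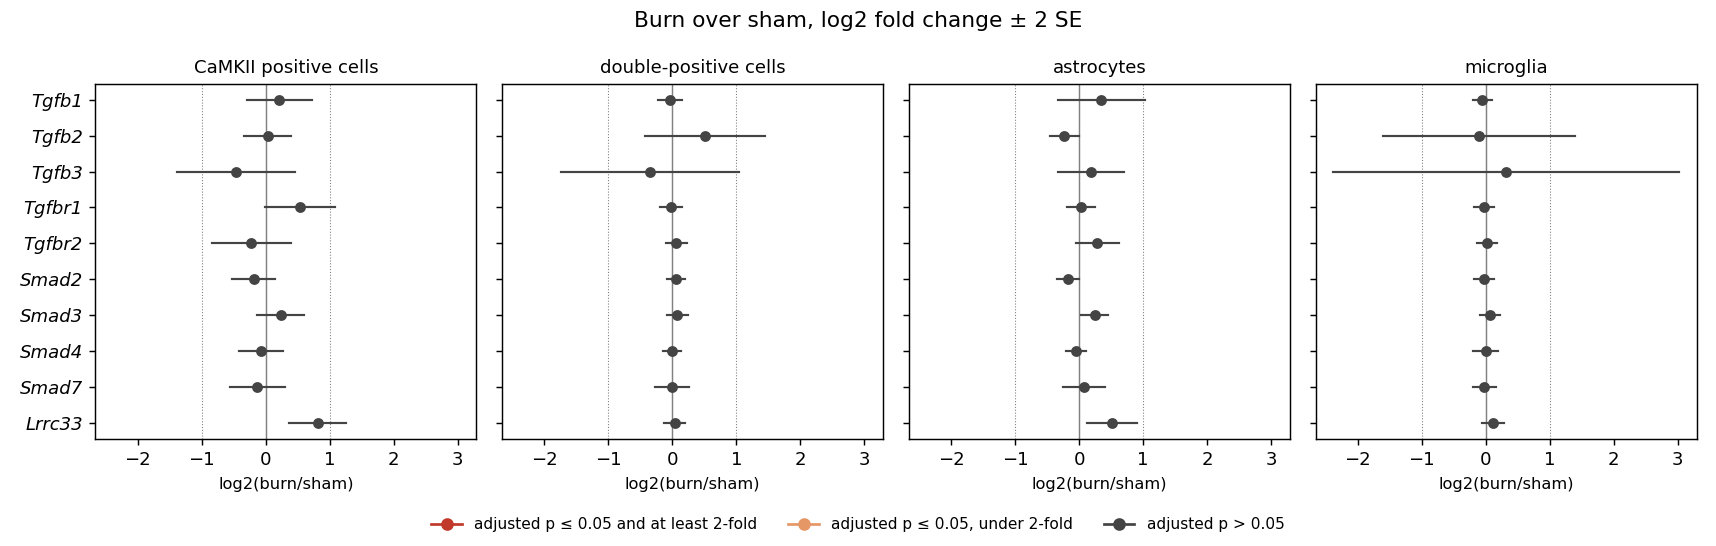
Log2 difference of burn against sham for the 10 genes in each sorted population, with points at the edgeR estimate and lines for 2 standard errors either side. No gene was called in any population, the longest line was that of Tgfb3 in every population except astrocytes, where it was that of Tgfb1, and Lrrc33 in CaMKII positive cells (0.81) and astrocytes (0.51) lay farthest above 0 among lines that did not cross it, while those of Tgfb2 (-0.23) and Smad2 (-0.17) in astrocytes lay just below 0.

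Lrrc33 had the smallest unadjusted p of the 10 genes in 3 of the 4 populations, CaMKII positive cells, astrocytes and microglia. In CaMKII positive cells the burn libraries of mice 2, 20, 22 and 24 held 43.2, 61.5, 33.6 and 55.7 CPM, and the sham libraries of mice 8 and 15 to 19 ran from 19.4 to 41.2 CPM with a median of 30.2 CPM. All burn libraries except mouse 22 lay above all shams. The log2 difference was 0.81 ± 0.22 (unadjusted p = 0.00306, adjusted p = 1.00 by edgeR), it ran from 0.71 to 1.01 when each mouse in turn was left out, and it was 0.73 in the batch 3 libraries alone. The summed microglial markers of the same libraries had a median of 888 CPM in burn (502 to 1778) and 543 CPM in sham (337 to 1319), and their 7 log2 differences had a median of 0.65. The lists that moved in the same direction by at least as much had a median log2 difference of 1.05 for 7 markers of border macrophages or monocytes (summed level 27.0 to 145.3 CPM in burn and 1.59 to 76.2 CPM in sham) and of 0.67 for 4 oligodendrocyte precursor markers (366 to 734 CPM in burn and 252 to 499.5 CPM in sham), of which 3 had an unadjusted p under 0.05. Lists with a median below 0 were oligodendrocytes (-0.45), mural cells (-0.40, 2 of 6 at an unadjusted p under 0.05), all neurons (-0.33), inhibitory neurons (-0.27) and endothelial cells (-0.20). Per 1000 CPM of the microglial markers, Lrrc33 stood at 55.3 ± 24.1 CPM in burn and 49.2 ± 17.5 CPM in sham, which overlapped, and the part of RNA from any of these cells in the difference was not tested further.

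In astrocytes, Lrrc33 ran from 15.4 to 36.1 CPM in burn (median 23.9, n = 9) and from 7.37 to 23.4 CPM in sham (median 15.8, n = 8), and 5 of 9 burn libraries lay above every sham. The log2 difference was 0.51 ± 0.20 (unadjusted p = 0.0151, adjusted p = 0.458 by edgeR), with a range of 0.39 to 0.71 when each mouse was left out. In batch 1 the mean was 21.4 CPM in 3 burn libraries and 23.4 CPM in the 1 sham library, in batch 2 it was 24.1 CPM in 1 burn library and 14.7 CPM in 2 shams, and in batch 3 it was 25.9 CPM in 5 burn libraries and 15.6 CPM in 5 shams. The summed microglial markers did not move the same way here, with medians of 64.1 CPM in burn and 73.9 CPM in sham. The summed endothelial markers did, with 376 to 1169 CPM in burn (median 599) and 119.6 to 682 CPM in sham (median 464), where 5 of the 6 endothelial genes had an unadjusted p under 0.05 and a median log2 difference of 0.57, and their part in the Lrrc33 values was not tested. Markers of border macrophages or monocytes had a median log2 difference of 2.26 over the 6 genes tested, with 2 at an unadjusted p under 0.05, at a summed level of 0 to 4.06 CPM in burn (median 0.761) and 0.0628 to 1.42 CPM in sham (median 0.769), and 5 markers of all neurons had a median of 0.69 with 0 at an unadjusted p under 0.05 by edgeR. Medians below 0 were those of inhibitory neurons (-0.47), oligodendrocyte precursors (-0.26), astrocytes (-0.12, 1 of 7 at an unadjusted p under 0.05) and microglia (-0.04). Mural cells (0.30), excitatory neurons (0.21) and oligodendrocytes (0.14) lay above 0. Smad3 in astrocytes had 43.5 to 54.6 CPM in burn (median 48.7) and 30.1 to 50.2 CPM in sham (median 41.1), a log2 difference of 0.25 ± 0.11 (unadjusted p = 0.0292, adjusted p = 0.458 by edgeR) that ran from 0.19 to 0.33 when each mouse was left out (highest unadjusted p = 0.0782) and was 0.42 in the batch 3 libraries alone. Its mean was 46.1 CPM in burn and 46.9 CPM in the sham library of batch 1, 50.7 and 46.0 CPM in batch 2, and 50.1 and 37.7 CPM in batch 3, and the part of the endothelial RNA in it was not tested either. Tgfb2 and Smad2 lay on the other side of 0. The summed astrocyte markers of the same libraries ran from 33466 to 43814 CPM in burn (median 36821) and from 32419 to 46188 CPM in sham (median 41963). Their part in these 2 genes was not tested. Tgfb2 had 56.9 to 75.7 CPM in burn (median 66.8) and 48.9 to 97.8 CPM in sham (median 77.7), a log2 difference of -0.23 ± 0.11 (unadjusted p = 0.0568, adjusted p = 0.482 by edgeR), and its unadjusted p ran from 0.00159, without mouse 17, to 0.126 when each mouse was left out. Smad2 had 42.4 to 54.8 CPM in burn (median 49.8) and 48.5 to 68.0 CPM in sham (median 52.3), a log2 difference of -0.17 ± 0.09 (unadjusted p = 0.0565, adjusted p = 0.482 by edgeR). Both groups overlapped for each of these genes. In microglia and double-positive cells, where Lrrc33 was most abundant, its differences were 0.11 ± 0.09 and 0.04 ± 0.08.

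Other values in CaMKII positive cells carried wide intervals, with 4 burn and 6 sham libraries. Tgfbr1 held 109, 244, 146 and 132 CPM in burn mice 2, 20, 22 and 24 and 59.5 to 176.8 CPM in shams (median 96.9), a log2 difference of 0.53 ± 0.27 (unadjusted p = 0.0741, adjusted p = 1.00). It rested in part on mouse 20, since the difference was 0.28 without it and ran up to 0.67, without sham mouse 15, when other mice were left out. Tgfb3 held 18.9, 21.1, 6.52 and 10.3 CPM in the same burn mice and 6.98 to 19.6 CPM in shams other than mouse 8, which held 105.7 CPM. Its log2 difference of -0.46 ± 0.46 was -0.00178 without mouse 8 and 0.000116 without mouse 2, the other CaMKII positive library kept from batch 1, but -1.05 without burn mouse 20 (unadjusted p = 0.0276, adjusted p = 0.998 by edgeR).

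Whether burn acted differently in different populations was tested as an interaction. Between microglia and astrocytes 0 of the 10 genes passed, against 0.00323% of 30983 genes (1 gene). At an unadjusted p under 0.05 by edgeR there were 0 of the 10, against 8.67% of all genes. DESeq2 called 0 of the 10, against 329 of the 30983 genes. Between CaMKII positive and double-positive cells 0 of the 10 passed, against 0.00977% of 30693 genes (3 genes). Against 6.01% of all genes, 2 of the 10 had an unadjusted p under 0.05 by edgeR. These were Lrrc33, with a difference between the burn effects of 0.83 ± 0.22 (unadjusted p = 0.000901, adjusted p = 0.437), and Tgfbr1, with 0.61 ± 0.28 (unadjusted p = 0.0405, adjusted p = 0.80). With a replicate block for the mouse the value for Lrrc33 was 0.61 ± 0.27 (adjusted p = 1.00), and the edgeR background counts of 1 and 3 genes both fell to 0. In the same interaction the 7 microglial markers had a median of 0.73, with 3 at an unadjusted p under 0.05, the 7 markers of border macrophages or monocytes 0.99, with 1, and the 10 microglial genes known to depend on TGF-beta 0.65, with 3. The median over all genes was 0.075, with 6.01% at an unadjusted p under 0.05 by edgeR. The part of those cells in the values of Lrrc33 and Tgfbr1 was not tested.

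**Figure D5:**
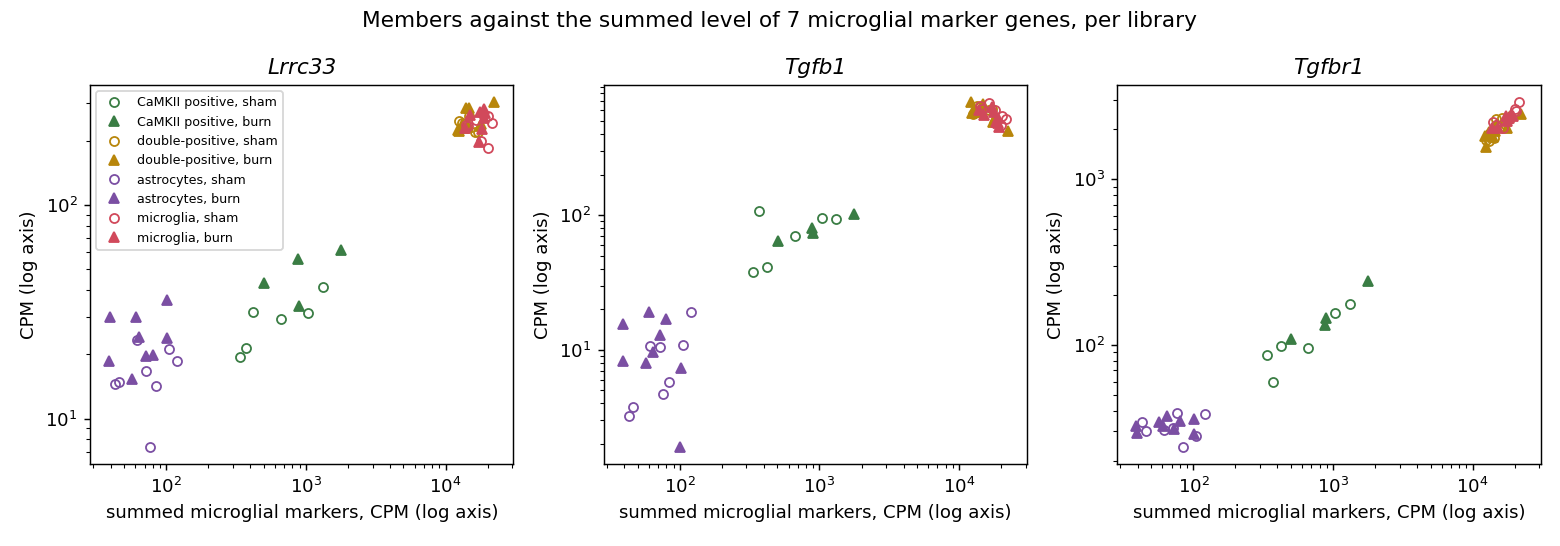
CPM of Lrrc33, Tgfb1 and Tgfbr1 against the summed CPM of 7 microglial markers in the same library (both log axes), by sorted population, with open circles for sham and filled triangles for burn. Double-positive cells and microglia overlapped on both axes and lay apart from CaMKII positive cells and from astrocytes, and Lrrc33 in astrocytes lay at 7.37 to 36.1 CPM over marker sums of 39.1 to 120.0 CPM.

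The remaining pathway was followed with 56 genes in 6 lists, of which 54 or 55 were tested in each comparison. Burn against sham called 0 of them in every population, and the unadjusted p was under 0.05 for 3, 0, 5 and 3 in CaMKII positive cells, double-positive cells, astrocytes and microglia, against 3.90%, 7.01%, 10.7% and 7.81% of all genes. These counts are near or below the background, and the genes named next are a description. In astrocytes they included the co-receptor Tgfbr3 (log2 difference 0.54, adjusted p = 0.458) and the BMP receptor Bmpr1a (-0.29, adjusted p = 0.458). In microglia they included Tgfbi, an extracellular matrix gene named for its induction by TGF-beta (0.31, adjusted p = 0.639). Summed markers of border macrophages or monocytes in these libraries averaged 412 ± 110 CPM in burn and 295 ± 105 CPM in sham. Those of microglia averaged 17414 ± 1975 and 17872 ± 2939 CPM. The part of such cells in Tgfbi was not tested.

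Between microglia and astrocytes, 25 of 54 genes were higher, 14 lower and 15 not called, against 21.8% of all genes higher and 32.4% lower, and their median log2 difference was 0.57 against -0.28 over all genes. The counts of each list below are to be read against the same shares. In the latency and activation list, which holds the proteins that store and release the ligands, 2 of 10 were higher and 6 lower in microglia. Itgb8, the integrin subunit that releases active Tgfb1 and Tgfb3, averaged 479.7 CPM in astrocytes and 1.55 CPM in microglia (log2 difference -8.46 ± 0.29). The latent binding protein Ltbp1 averaged 122.6 and 0.347 CPM (-8.76 ± 0.37) and Ltbp3 110.5 and 7.01 CPM (-4.04 ± 0.13), while the integrin subunit Itgb5 averaged 156.0 CPM in astrocytes and 1318 CPM in microglia (3.02 ± 0.09). The higher pair thus held Itgb5 and Thbs1, whereas carriers of latent ligand other than Lrrc33 that were called, Ltbp1, Ltbp3, Ltbp4 and Lrrc32, were lower.

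Of 13 intracellular regulators, 6 were higher and 1 lower in microglia. The feedback genes Skil (5.45 ± 0.14) and Pmepa1 (4.65 ± 0.10) and the corepressors Tgif1 (4.75 ± 0.18) and Ski (2.22 ± 0.08) were higher, and Bambi, a decoy receptor, was lower (-1.14 ± 0.27). Skil averaged 1059 CPM in microglia and 22.7 CPM in astrocytes. Among 9 target genes, 4 were higher, including Tgfbi (6.29 ± 0.33), and 4 lower, including Id3 (-5.95 ± 0.29) and Id1 (-4.60 ± 0.23), which are known mainly as targets of the BMP branch. Of the 9 co-receptors and related receptors, Acvr2b (1.27) and Eng (1.28) were higher, Tgfbr3 (-3.95) and Bmpr1a (-1.69) were lower and 5 were not called. Of the 3 BMP Smads, Smad1 was higher (1.14) and Smad9 lower (-7.34). All 10 microglial genes known to depend on TGF-beta were higher, with a median of 9.45, from Sall1 at 3.34 ± 0.07 to Tmem119 at 10.06 ± 0.33. Because several of these are standard microglial markers, their direction was fixed by the sort.

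In double-positive cells against microglia, 3 of 55 pathway genes were called, all higher, which is near the 5.6% of all genes called higher and is no result about the pathway. They were Itgb8 (2.43 ± 0.36, 9.26 against 1.55 CPM), Ltbp1 (2.83 ± 0.65, 2.43 against 0.347 CPM) and Ltbp2, whose mean was 0.117 CPM in double-positive cells and 0 in microglia. All 3 were low in both populations. Summed astrocyte markers had a median of 896 CPM in double-positive cells and 232 CPM in microglia, and mural cell markers 22.1 and 7.40 CPM. Those of microglia (14293 and 17990 CPM) and of border macrophages or monocytes (126 and 350 CPM) lay the other way. The part of such cells in the 3 genes was not tested. In CaMKII positive cells against astrocytes, 29 of 55 were higher and 3 lower, against 12.7% and 3.5% of all genes, with a median log2 difference of 1.42 against 0.00216 over all genes. Markers of other cells were also called higher, namely 7 of 7 for microglia (median log2 difference 4.78), 7 of 7 for border macrophages or monocytes (5.90), 6 of 6 for endothelial cells (2.85), 5 of 5 for oligodendrocytes (3.59) and 4 of 4 for oligodendrocyte precursors (3.71), while 7 of 7 astrocyte markers were lower (-1.25). Their part in the pathway counts was not tested. The higher genes included the endothelial receptors Acvrl1 (2.78 ± 0.20) and Eng (2.73 ± 0.24), Skil (2.75 ± 0.16), Ltbp4 (2.79 ± 0.23), and 9 of the 10 microglial genes known to depend on TGF-beta, Sall1 being the exception (-0.25, adjusted p = 0.105). The lower genes were Itgb8 (-1.19 ± 0.11), Smad9 (-1.11 ± 0.17) and Bmpr1a (-1.01 ± 0.09).

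The genes most alike to each, among 19381 genes, were taken by Spearman's rho of CPM over the 58 libraries, as a description only, since libraries fall into population clusters and share depth within a library. Tgfbr1 was most like Cmtm6, Tmem119 and Slc2a5 (each 0.96), and Tgfbr2 most like Slco2b1 and Vsir (each 0.98). Tgfb1 was most like Lrch1 (0.96), Mef2a (0.95) and Dennd1c (0.95), Smad7 most like Egr2 and Plk3 (each 0.94), and Lrrc33 most like Pik3cd (0.91), Tnfrsf1a (0.90) and Cebpb (0.89). Tgfb2 was most like Crip2 (0.92), Slco1c1 (0.90) and Epas1 (0.90), and Tgfb3 most like Il17rc (0.88), Nr2f2 (0.87) and Cthrc1 (0.86). Smad3 was most like Slc38a10 (0.94), Smad2 most like Alox5 (0.90), and Smad4 had the weakest partner, Rmnd5a (0.77).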

How the data were processed

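Libraries were stranded total RNA with ribosomal depletion, per the labels. The authors trimmed reads with fastp, aligned them with STAR and deposited raw counts per gene, 1 table per sorted population, against a genome the submitters' processing notes name as GRCm39 and mm10. Whether counting used strand is not given in the sources used here, and reads from overlapping antisense genes may be included. Symbols and exon lengths came from annotation tables, by gene ID. Sequences came from RefSeq promoter windows on GRCm38.p6 and were matched by symbol, and file counts carry no coordinates.

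Mouse 3 and double-positive mouse 8 were left out, as in the study. CPM was counts per 1000000 counts of the library. Differences were tested with edgeR 4.0.16 in R 4.3.3 (TMM scaling, genes with at least 10 counts in total, quasi-likelihood test, adjusted p of at most 0.05 and at least 1 on the log2 scale), with batch (3 levels, from the study's sample table) as a term. The standard error is the log2 difference over the square root of F. DESeq2 1.42.0, other scalings, filters, batch handling, libraries and a mouse block were alternatives. The edgeR tests of burn against sham and of the population pairs were run on simulated counts. The interaction, DESeq2 and mouse block fits were not checked in this way. The 3 double-positive libraries kept from batch 1 were all burn, and the 1 microglia library kept from batch 2 was sham, so those batches add nothing to burn against sham in these populations. The number of a library is its mouse, so libraries of different populations are paired by animal. Deviations of same-numbered libraries from their group means correlated with a median r of 0.0939 over 15 mice (microglia and astrocytes), 0.106 over 14 (double-positive cells and microglia), 0.0116 over 10 (CaMKII positive cells and astrocytes) and 0.0794 over 9 (CaMKII positive and double-positive cells). No pair of libraries of a population agreed within sampling noise (lowest chi-square per gene 13.4 over 481 pairs). Named genes were the 10 members, the 56 pathway genes that were called or had the smallest p, at most 4 a list, and the 3 most alike genes per member. Bambi, Thbs1, Lrrc32 and Ltbp4 (microglia against astrocytes) and Sall1 (CaMKII positive cells) were named after their values were seen. Some genes these rules select, 1 of the 7 microglial markers among them, are not reported here by name. The members and lists were chosen with earlier results of these data known.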

Additional observations from a re-analysis of the deposited data

Results flagged for a closer look

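In 80 groups of 1 gene, population and treatment that held 4 to 9 libraries, 5 had a single library far from the rest, where chance flags about 1 in 20. All 5 concerned Tgfb2 or Tgfb3 and came from 4 libraries. Double-positive burn mouse 10 accounted for 2, with Tgfb3 at 10.1 CPM (320 counts) against 0 to 0.955 CPM in the other burn libraries, and Tgfb2 at 6.24 CPM (198 counts) against 0.653 to 3.18 CPM. The sham CaMKII positive library of mouse 8 held Tgfb3 at 105.7 CPM (2793 counts) against 6.98 to 19.6 CPM in the other shams, and its summed oligodendrocyte markers stood at 1907 CPM, whose part in the value was not tested. The sham microglia library of mouse 16 held Tgfb2 at 3.81 CPM (84 counts) against 0.0843 to 0.822 CPM. The burn astrocyte library of mouse 20 held Tgfb3 at 20.6 CPM (401 counts) against 6.82 to 13.0 CPM.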

How the results depend on the processing

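Few counts limited Tgfb2 and Tgfb3 in microglia and double-positive cells, and 4 burn libraries limited the CaMKII positive comparison. Batch and burn cannot be told apart in double-positive batch 1, which kept burn libraries only, or in microglia batch 2, which kept 1 sham library. The number of the 10 genes called was 0 for burn against sham, 8 for microglia against astrocytes and 4 for CaMKII positive cells against astrocytes under every alternative except no minimum fold change, which raised the last 2 counts to 9 and 6. For the interactions it was 0 with DESeq2, in batch 3 alone and with the replicate block, the only alternatives run for them. For double-positive cells against microglia it was 1, but 5 with no minimum fold change, 0 with all deposited libraries, 0 in batch 3 alone and 0 to 1 when each mouse was left out. Mean levels, 40 of gene and population, moved by over 1 SD in 0 cases under TMM scaling and with all deposited libraries. Causes were not tested.

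Counts over all genes moved as follows. DESeq2 called 3 genes for burn in CaMKII positive cells, 2 in double-positive cells, 27 in astrocytes and 80 in microglia, and 329 and 91 for the microglia and double-positive interactions. All deposited libraries gave 136 for burn in double-positive cells, where the left-out mouse 8 library holds 331215 counts. No filter on low counts gave 14 in double-positive cells and 4 in astrocytes. For double-positive cells against microglia, the 2179 genes became 5073 with no minimum fold change, 1287 with edgeR's filterByExpr and 1008 in batch 3 alone, and for CaMKII positive cells against astrocytes the 4978 became 9181 with no minimum fold change. Batch 3 alone gave 3 genes for the microglia interaction and 0 for the double-positive one. The replicate block, which pairs libraries by mouse, gave 1092, 3302, 0 and 0 for double-positive cells against microglia, CaMKII positive cells against astrocytes and the 2 interactions, and changed no call among the 10 genes at the 2-fold rule.

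Signs turned only for uncalled differences, all on the log2 scale. Smad7 for burn in double-positive cells was 0.00197 with DESeq2, 0.00188 with RLE size factors, 0.46 with all deposited libraries, 0.075 in batch 3 alone and 0.056 with no batch term. All deposited libraries also gave burn values of 0.014, 0.38 and 0.00424 for Smad4 in CaMKII positive cells, double-positive cells and microglia, 0.41 for Tgfb1 and 0.44 for Tgfbr1 in double-positive cells, and -0.079 for Tgfb1 between double-positive cells and microglia. Batch 3 alone gave burn values of 0.00896 for Tgfbr2 in CaMKII positive cells, 0.020 for Tgfb1 in double-positive cells, 0.042 for Smad4 in astrocytes, and 0.00117, 0.028 and 0.030 for Tgfbr1, Smad4 and Smad7 in microglia. Between double-positive cells and microglia it gave -0.011 for Tgfb1 and 0.00217 for Lrrc33, for which library size alone gave 0.033. Its interactions were -0.17, -0.00295 and 0.00262 for Tgfb2, Smad4 and Smad7 (microglia) and 0.78, 0.011 and 0.010 for Tgfb3, Tgfbr2 and Smad4 (double-positive). The filterByExpr setting gave 0.000165 for burn on Smad4 in microglia. With no batch term, burn values were 1.22, 0.010 and 0.030 for Tgfb3, Tgfbr1 and Smad4 in double-positive cells, and -0.011, 0.00444, 0.029 and 0.079 for Tgfbr2, Smad2, Smad4 and Smad7 in microglia. The replicate block gave interactions of -0.00313 for Tgfb3 (microglia), and 1.45, 0.00551 and 0.047 for Tgfb3, Tgfbr2 and Smad4 (double-positive).

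When each mouse in turn was left out, burn values in CaMKII positive cells ran from -0.051 to 0.15 for Tgfb2, -1.05 to 0.000116 for Tgfb3, -0.45 to 0.0026 for Tgfbr2, -0.15 to 0.022 for Smad4 and -0.20 to 0.061 for Smad7. In double-positive cells they ran from -0.082 to 0.019 for Tgfb1, -0.047 to 0.060 for Tgfbr1, -0.027 to 0.025 for Smad4, -0.055 to 0.075 for Smad7 and -0.020 to 0.065 for Lrrc33. In astrocytes the ranges were -0.042 to 0.31 for Tgfb3, -0.022 to 0.081 for Tgfbr1 and -0.047 to 0.18 for Smad7. In microglia they were -0.50 to 0.67 for Tgfb2, -0.35 to 0.86 for Tgfb3, -0.063 to 0.020 for Tgfbr1, -0.030 to 0.066 for Tgfbr2, -0.094 to 0.016 for Smad2, -0.071 to 0.051 for Smad4 and -0.069 to 0.025 for Smad7. Tgfb1 between double-positive cells and microglia ran from -0.040 to 0.037, and Tgfb2 between CaMKII positive cells and astrocytes from -0.012 to 0.14.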
